A study of Arabidopsis thaliana with 4 samples.

Results

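Helitrons are DNA transposons that are copied by rolling-circle replication. Their autonomous members encode a protein with a replication initiator and a helicase domain, and their copies carry neither terminal inverted repeats nor target site duplications. Plants keep most transposons silent through DNA methylation and methylation of histone H3 at lysine 9. *JMJ26* encodes a protein with a jumonji C domain and is a close homolog of *IBM1*, which demethylates that lysine within genes. The copies described here are those annotated as RC/Helitron whose family name does not begin with ATREP. They number 4286 of the 31189 transposon copies counted, and 4286 of the 12945 Helitron copies, the other 8659 being ATREP copies. All 13 families that the rule selected are named HELITRON, 5 of them numbered (HELITRON1 to HELITRON5) and 8 of them HELITRONY families, and they are called HELITRON copies below. The rule reads the annotated names and no count.

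RNA-seq was carried out on whole rosettes of *A. thaliana*, with 2 libraries of *jmj26*, a T-DNA insertion line in the Col-0 background, and 2 libraries of Col-0, the wild type. Seeds of both genotypes had been stratified for 2 days at 4°C, and plants were grown at 21°C with 16 h of light. The mutant is represented by a single insertion stock, and rosettes were harvested one by one. The labels do not say which plants, or how many, went into each library, so that the p-values measure only the spread between these libraries. The comparison addresses whether transposon RNA differs between the mutant and the wild type. Within each genotype, values are given for replicate 1 and then replicate 2.

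The libraries were shallow and unequal. Total counts were 1998601 and 1497105 in *jmj26* and 1022041 and 740909 in Col-0, so that 3 counts, taken as the floor, correspond to 1.50 and 2.00 CPM (counts scaled to library size) in *jmj26* and 2.94 and 4.05 CPM in Col-0. The targeted gene *JMJ26* had 0 and 2 counts in *jmj26* and 1 and 0 in Col-0, too few to check the genotype labels. Gene rows with a gene on the opposite strand made up 24.9% of the gene annotation and held 92.4% and 92.5% of gene counts in *jmj26* and 95.7% and 94.5% in Col-0. *RBCS1A*, a Rubisco small subunit gene that marks green leaf tissue, had 573 and 366 counts in *jmj26* and 88 and 132 in Col-0. The labels name a strand-specific library kit, and the strand setting of the counting is not given in the sources used here. Whether a count on a HELITRON copy came from the strand of the transposon could therefore not be told. The family ATDNA12T3_2, a DNA transposon family that is no Helitron, took 25.6% of all transposon counts in Col-0 replicate 2, against 1.90% and 0.259% in *jmj26* and 0.340% in Col-0 replicate 1. In RNA from whole rosettes, fewer cells of a type and less RNA per cell cannot be told apart. The length of each copy was not known here, so counts are compared between genotypes and not as levels between copies.

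Most HELITRON copies were not counted at all. No library held a count for 3277 of the 4286 copies (76.5%), against 74.2% of ATREP copies and 75.3% of all transposon copies. Of the 1009 copies with a count, 196 (4.57% of all HELITRON copies) exceeded 3 counts in some library, 96 exceeded 3 counts in every library, and 134 were counted in all 4. The share of copies above 3 counts in some library was 4.15% for ATREP copies and 5.80% for all transposon copies. A count of 0 was compatible with up to 3 counts, so that low transcript levels of the uncounted copies were not detectable at this depth.

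The number of copies with a count followed the depth of the library. It was 531 and 441 in *jmj26* and 414 and 352 in Col-0. When every library was brought to the total of the shallowest one, 740909 counts, the expected numbers were 315 and 313 in *jmj26* and 350 and 352 in Col-0. At equal depth, the expected number was lower in each *jmj26* library than in each Col-0 library, and the ratio of the means was 0.894. The exact permutation test, two-sided, gave p = 0.333, the smallest value that 2 libraries against 2 can give. The same ratio was 0.900 for ATREP copies and 0.914 for all transposon copies. No copy had 0 counts in both libraries of one genotype and 5 or more in both of the other.

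A small number of copies held most of the counts. Of 45843 counts on HELITRON copies over the 4 libraries, 10 copies held 50.3% and 67 copies held 90%. The copy with the most counts, AT3TE13760 of the family HELITRONY1B, alone held 9.99%. The 10 highest copies of each library held 50.6% and 49.6% of the counts in *jmj26* and 51.9% and 51.0% in Col-0. The concentration was thus nearly the same in the 4 libraries, as the cumulative curves show.

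**Figure D1:**
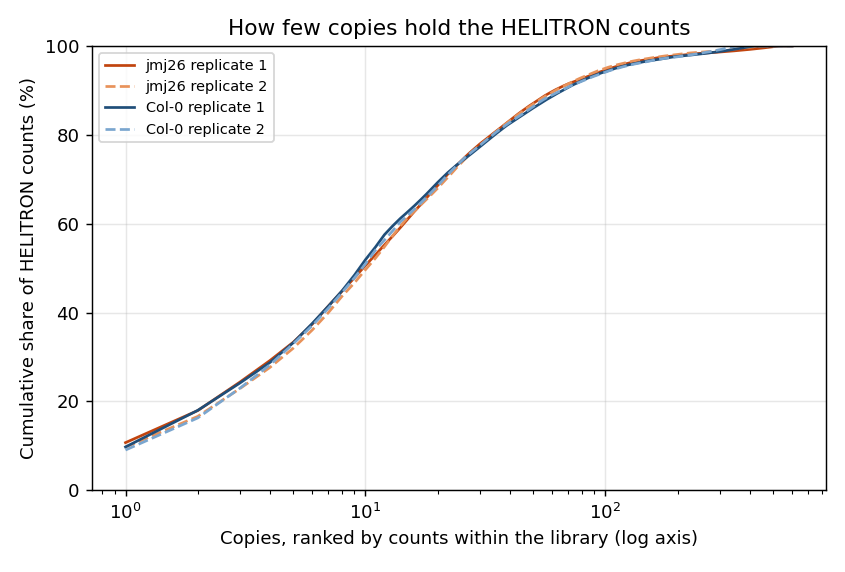
Cumulative share of HELITRON counts (%, vertical axis) against the number of copies, ranked by their counts within each library (log axis), with 1 line for each of the 4 libraries. The curves lie close together, and the 10 highest copies hold 49.6% to 51.9% of the counts in every library.

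The identifiers of the copies give their chromosome but no position within it. Chromosome 3 carried 20.0% of the copies and 41.3% and 40.4% of the HELITRON counts in *jmj26*, against 41.9% and 42.3% in Col-0. The share of its copies with any count was 22.6%, against 22.8% to 25.2% on the other chromosomes, so the difference lay in how many counts its counted copies held. Chromosome 4 carried 15.4% of the copies and 8.81% and 6.91% of the counts in *jmj26*, against 8.63% and 7.38% in Col-0. The distribution over chromosomes was similar in both genotypes.

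The summed level of the HELITRON copies did not pass the test between genotypes. After TMM normalization of the summed groups, it was 8175 and 9300 CPM in *jmj26* and 9141 and 9205 CPM in Col-0. The genotypes overlapped, and the log2 fold change of *jmj26* over Col-0 was -0.070 (standard error 0.11, adjusted p = 0.660 over 20 transposon groups in edgeR's quasi-likelihood test). The summed ATREP copies had -0.18 on the log2 scale (standard error 0.098) and an adjusted p of 0.302 in the same test. The sign of the HELITRON sum turned under other scalings, to 0.037 with library totals and 0.062 with transposon rows alone.

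As a share of all transposon counts, HELITRON copies took 4.91% (95% Wilson interval 4.84% to 4.99%) and 5.09% (5.01% to 5.18%) in *jmj26*. In Col-0 they took 5.12% (5.02% to 5.22%) and 3.87% (3.78% to 3.97%). The low value of Col-0 replicate 2 stood beside the high share of ATDNA12T3_2 in that library. The mean difference was 0.507 percentage points with all families, and the exact permutation test gave p = 1. Without ATDNA12T3_2, the shares were 5.01% and 5.11% in *jmj26* and 5.14% and 5.21% in Col-0, a difference of -0.116 percentage points (exact permutation p = 0.333). The intervals cover counting error only.

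The families differed widely in copy number and in counts. HELITRON1 to HELITRON5 comprised 632 copies (14.7%) and held 44.7% of the HELITRON counts, and the HELITRONY families comprised 3654 copies (85.3%) and held 55.3%. HELITRON1, with 130 copies, held 33.0% of the counts, HELITRONY3, with 1399 copies, held 20.7%, and HELITRONY1B, with 414 copies, held 16.3%. Each of the other 10 families held between 0.0742% (HELITRONY3A) and 6.83% (HELITRONY1D). In several families, a single copy dominated. AT2TE85710 held 76.3% of the counts of HELITRONY2, AT3TE51195 held 61.5% of HELITRON3, and AT3TE13760 held 61.2% of HELITRONY1B. By contrast, the highest copy of HELITRONY3, AT3TE43655, held 18.5% of that family.

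No HELITRON family passed FDR < 0.05. Summing the copies of a family removes the division of reads that map to several copies of it. Of 13 families, 12 had enough counts to be tested, and 0 were called, against 0 of all 203 transposon families (0.0%). At an unadjusted p below 0.05, 1 of the 12 was called, against 6.4% of all families. The log2 fold changes ran from -0.63 to 0.25, with 6 above and 6 below 0, and their median was -0.012, against -0.091 over all families. Both *jmj26* libraries lay above both Col-0 libraries in 1 of the 12 families, where the background was 9.36%, and below them in 2, where it was 25.6%.

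The 3 families with the most counts were nearly level between genotypes. HELITRON1 had 2726 and 3212 CPM in *jmj26* and 3077 and 2767 CPM in Col-0. HELITRONY3 had 1884 and 1728 CPM in *jmj26* and 1876 and 1938 CPM in Col-0. HELITRONY1B had 1463 and 1486 CPM in *jmj26* and 1443 and 1371 CPM in Col-0. The genotypes overlapped in HELITRON1 and HELITRONY3, with log2 fold changes of 0.023 (standard error 0.15) and -0.078 (standard error 0.13). HELITRONY1B was the family with both *jmj26* libraries above both Col-0 libraries, at a log2 fold change of 0.067 (standard error 0.13). Its sign turned to -0.038 when no filter on low counts was applied.

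Most tested copies of HELITRON1 shared the sign of their fold change, and its sum was near level with or without AT1TE93275. Of its 13 tested copies, 11 had a negative log2 fold change, with a median of -0.12 over the 13. As background, 44.6% of the 101 tested HELITRON copies and 41.6% of all 846 tested transposon copies had a positive one. Related copies share reads, so their signs are not independent. A copy with a positive one, AT1TE93275, described below, made up 6.27% and 6.35% of the HELITRON1 counts in *jmj26* and 0.0324% and 0% in Col-0. Without that copy, HELITRON1 had 2555 and 3008 CPM in *jmj26* and 3076 and 2767 CPM in Col-0, and its log2 fold change was -0.071 (standard error 0.15).

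HELITRON5 had the lowest log2 fold change of the families. It had 158 and 140 CPM in *jmj26* and 202 and 263 CPM in Col-0, without overlap, which is -0.63 on the log2 scale (standard error 0.18; unadjusted p = 0.0107 and adjusted p = 0.585 in edgeR's quasi-likelihood test). All 4 of its tested copies had negative log2 fold changes, where 41.6% of all tested transposon copies had positive ones. A single copy, AT3TE58655, held 55.2% of the counts of HELITRON5. Without AT3TE58655, the remainder of HELITRON5 had 74.3 and 66.1 CPM in *jmj26* and 120 and 60.0 CPM in Col-0, with overlap, and a log2 fold change of -0.38 (standard error 0.31). With no filter on low counts, the adjusted p of HELITRON5 was 0.00916, the lowest of a range of 0.00916 to 0.947 over the alternatives. That setting also called more single transposon copies, 109 of 7703, against 3 of 846 with the filter.

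HELITRONY1E was the other family with both *jmj26* libraries below both Col-0 libraries. It had 157 and 164 CPM in *jmj26* and 240 and 171 CPM in Col-0, and its log2 fold change was -0.37 (standard error 0.19, adjusted p = 0.606 in edgeR's quasi-likelihood test). The Col-0 libraries differed from each other by more than the gap between the genotype means. A single copy, AT5TE48720, described below, held 121 and 43 of the family's 241 and 120 counts in Col-0. In *jmj26* it held 12 and 24 of 311 and 240 counts, so the lower family sum rested on this copy. The family's other counts, scaled to library size, were higher in both *jmj26* libraries than in both Col-0 libraries. The family was not fitted without AT5TE48720, so that difference was not tested.

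HELITRON4 was the tested family in which the *jmj26* libraries differed most as a ratio. It had 210 and 393 CPM in *jmj26* and 258 and 246 CPM in Col-0, so that both Col-0 libraries lay between the *jmj26* libraries. Its log2 fold change was 0.25 (standard error 0.29, adjusted p = 0.776 in edgeR's quasi-likelihood test). Without *jmj26* replicate 1 the log2 fold change was 0.62, and without *jmj26* replicate 2 it was -0.26. HELITRON2 showed a like spread, with 392 and 586 CPM in *jmj26* and 490 and 690 CPM in Col-0 and a log2 fold change of -0.27 (standard error 0.25).

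In the remaining families the genotypes overlapped. HELITRONY1D had 569 and 699 CPM in *jmj26* and 581 and 566 CPM in Col-0. HELITRONY1A had 397 and 361 CPM in *jmj26* and 414 and 370 CPM in Col-0. HELITRONY1C had 321 and 271 CPM in *jmj26* and 252 and 284 CPM in Col-0. The difference between genotypes was within the spread of the replicates in each of these families. HELITRONY2 had 169 and 151 CPM in *jmj26* and 168 and 144 CPM in Col-0. HELITRON3 had 76.3 and 84.5 CPM in *jmj26* and 81.8 and 84.3 CPM in Col-0. Both were level between genotypes, with log2 fold changes of 0.037 and -0.047. HELITRONY3A had 14 and 5 counts in *jmj26* and 11 and 4 counts in Col-0, too few for the test.

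**Figure D2:**
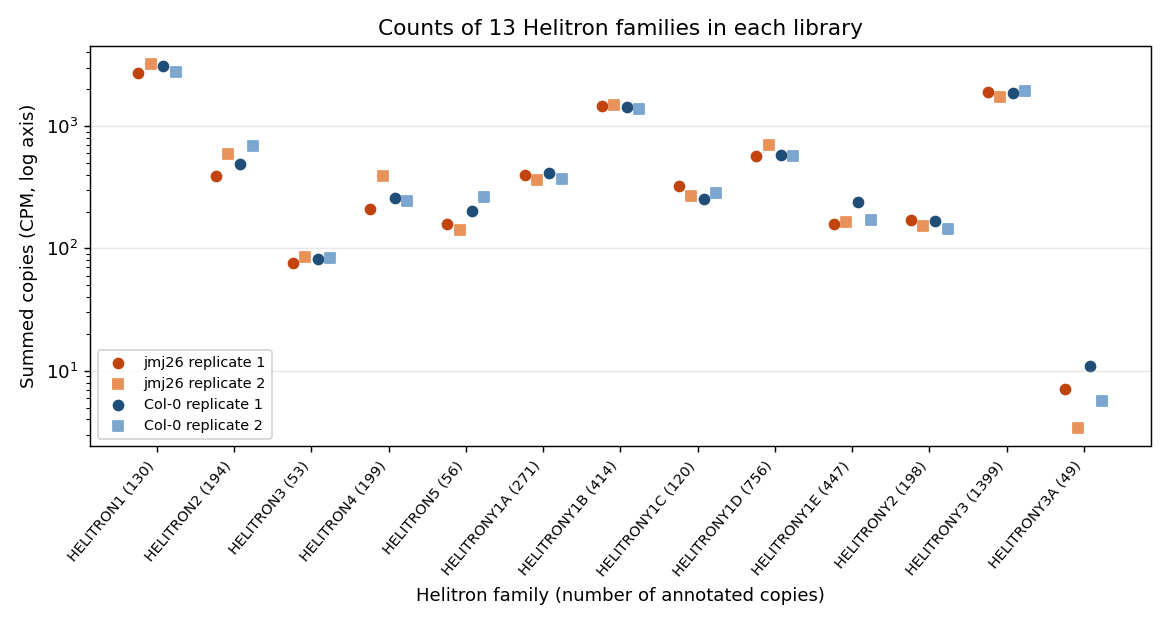
Summed CPM (log axis, TMM-normalized) of each of the 13 HELITRON families in the 4 libraries, with the number of annotated copies in parentheses and 1 point for each library (*jmj26* in orange, Col-0 in blue, circles for replicate 1 and squares for replicate 2). The points of the genotypes overlap in most families, HELITRON5 lies lower in both *jmj26* libraries (158 and 140 CPM, against 202 and 263 CPM in Col-0), and the *jmj26* libraries of HELITRON4 lie apart (210 and 393 CPM).

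Single copies were tested where their counts sufficed. Of the 4286 HELITRON copies, 101 passed edgeR's filter on low counts, and these held 94.1% of the HELITRON counts. The 4185 copies that were not tested had totals of at most 40 counts. More of the numbered families' copies were tested, 35 of 632 (5.54%), against 66 of 3654 (1.81%) for the HELITRONY families. Among the tested copies, 2 had passed the filter although both libraries of a genotype were at or under 3 counts (AT1TE93275 and AT3TE44400), and 11 had some library at or under 3 counts.

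HELITRON copies were called about as often as transposon copies at large. At FDR < 0.05, 1 of the 101 was called (0.990%), against 3 of all 846 tested transposon copies (0.355%). That 1 copy, AT1TE93275, is among the 3, and it is also 1 of the 2 that passed the filter with Col-0 at or under the floor. At an unadjusted p below 0.05, 8 were called (7.92%), against 8.04% of all transposon copies. Of the 8, 5 were higher (background 3.43%) and 3 lower in *jmj26* (background 4.61%). Both *jmj26* libraries lay above both Col-0 libraries in 18 copies (17.8%, background 12.9%) and below them in 18 (17.8%, background 20.4%). An absolute log2 fold change above 1 was found for 14 copies (13.9%), 7 in each direction, against 13.0% of all transposon copies. The count at FDR < 0.05 rests on 1 copy. Among the other shares, the widest gap from the background was that of copies with both *jmj26* libraries higher (17.8% against 12.9%).

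The median log2 fold change of the tested HELITRON copies was -0.068 (quartiles -0.34 and 0.26). It was -0.080 over the 166 tested ATREP copies and -0.077 over all 846 tested transposon copies. Of the 101 HELITRON copies, 45 (44.6%) had a positive log2 fold change, against 41.6% of all transposon copies. The median was -0.11 over the 35 copies of the numbered families and -0.0055 over the 66 HELITRONY copies. With 1 library left out, the median ran from -0.14 to -0.025. The number called at FDR < 0.05 depended on the filter and the tool, with 13 calls among 1009 copies without a filter and 2 among 101 with DESeq2. Over all transposon copies, the calls in these settings were 109 of 7703 and 8 of 846.

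**Figure D3:**
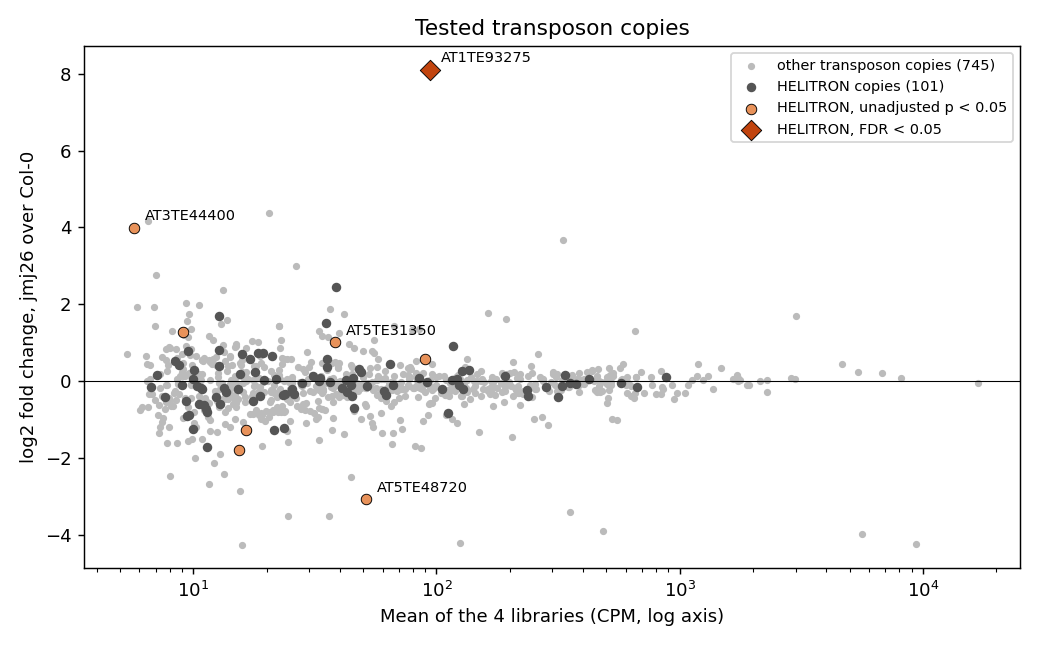
Log2 fold change of *jmj26* over Col-0 (vertical axis) against mean CPM of the 4 libraries (log axis) for the 846 tested transposon copies, with HELITRON copies in dark gray and those at an unadjusted p below 0.05 in orange. AT1TE93275, the diamond, lies highest at a log2 fold change of 8.10, and 45 of the 101 HELITRON copies lie above 0.

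AT1TE93275, a HELITRON1 copy on chromosome 1, was the single HELITRON copy that rose in *jmj26* at FDR < 0.05. It had 338 and 299 counts (172 and 205 CPM) in *jmj26*, against 1 and 0 counts (0.998 and 0 CPM) in Col-0. Both *jmj26* libraries held the copy at similar levels, and both Col-0 libraries were under the floor. The fitted log2 fold change was 8.10 (standard error 0.45, adjusted p = 0.00313 in edgeR's quasi-likelihood test). The copy passed the filter on low counts through its *jmj26* libraries alone, and with 1 count in Col-0 the fitted value depends on the prior count and is no bound. The ratio of summed counts, scaled to library size, was 315, with an exact 95% interval of 56.4 to 12478 that covers counting error only.

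The transposon copies listed around AT1TE93275 had almost no counts. Gene rows near AT1TE93275 were not examined, because positions within the chromosome were not known. The copies listed on either side of it, AT1TE93270 (ATHAT2) and AT1TE93285 (HELITRONY3), had 0 counts in all 4 libraries, as had AT1TE93245. AT1TE93290 had a single count, in Col-0 replicate 1. Over the alternatives in which AT1TE93275 was tested, its adjusted p ranged from 2.54e-58 to 0.143, the highest with transposon rows fitted alone. It was not tested when at least 10 counts were required in every library.

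The next copies by unadjusted p did not pass FDR < 0.05, but their libraries did not overlap between genotypes, which was part of the rule that selected them. AT5TE48720, a HELITRONY1E copy on chromosome 5, had 12 and 24 counts (6.09 and 16.5 CPM) in *jmj26*, against 121 and 43 counts (121 and 61.9 CPM) in Col-0. All 4 libraries held it above the floor, and its log2 fold change was -3.07 (standard error 0.54, adjusted p = 0.261 in edgeR's quasi-likelihood test). The copy listed next to it, AT5TE48715 of the family ATREP15, had 104 and 103 counts in *jmj26* and 701 and 416 in Col-0, for a log2 fold change of -3.40 (adjusted p = 0.00313 in the same test). AT5TE48720 passed FDR < 0.05 with DESeq2 (adjusted p = 0.000350) and without a filter (2.97e-19), in a range of 2.97e-19 to 0.966 over the alternatives. Those 2 settings called more transposon copies at large, 8 of 846 with DESeq2 and 109 of 7703 without a filter, against 3 of 846 above.

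AT3TE44400, a HELITRONY1B copy on chromosome 3, had 20 and 17 counts (10.2 and 11.7 CPM) in *jmj26*, against 1 and 0 counts (0.998 and 0 CPM) in Col-0. The ratio of summed counts was 18.3, with an exact 95% interval of 3.09 to 743 for counting error. AT3TE44400 likewise passed the filter through its *jmj26* libraries alone, and its fitted log2 fold change, 4.00 with a standard error of 0.78, is no bound (adjusted p = 0.295 in edgeR's quasi-likelihood test). As in AT5TE48720, the copy next in the list had values of the same kind. AT3TE44395, a VANDAL21 copy, had 51 and 77 counts in *jmj26* and 2 and 1 in Col-0, for a log2 fold change of 4.39 (adjusted p = 0.154 in the same test). Whether the counts of these neighbours came from the same transcripts was not tested.

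In 3 further copies both *jmj26* libraries were higher. AT5TE31350 (HELITRONY3, chromosome 5) had 82 and 89 counts (41.6 and 61.1 CPM) in *jmj26*, against 26 and 17 counts (25.9 and 24.5 CPM) in Col-0, for a log2 fold change of 1.01 (standard error 0.28). AT5TE18970 (HELITRONY1D, chromosome 5) had 30 and 15 counts (15.2 and 10.3 CPM) in *jmj26*, against 5 and 4 counts (4.99 and 5.76 CPM) in Col-0, for a log2 fold change of 1.27 (standard error 0.44). AT5TE33460 (HELITRONY1C, chromosome 5) had 214 and 152 counts (109 and 104 CPM) in *jmj26*, against 61 and 58 counts (60.8 and 83.5 CPM) in Col-0, for a log2 fold change of 0.57 (standard error 0.21). Their adjusted p-values were 0.438, 0.579 and 0.579 in edgeR's quasi-likelihood test, so none was called. AT5TE18970 is listed beside AT5TE18975 of the family VANDAL8, which had 3692 and 2471 counts in *jmj26* and 1886 and 1132 in Col-0 and a log2 fold change of 0.024. On its other side, AT5TE18930 (ATTIRX1D) had 74 and 0 counts in *jmj26* and 21 and 13 in Col-0, for a log2 fold change of -0.0084. Whether AT5TE18970 differed from these neighbours was not tested.

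In 2 further copies both *jmj26* libraries were lower. AT1TE34015 (HELITRONY3, chromosome 1) had 19 and 5 counts (9.64 and 3.43 CPM) in *jmj26*, against 20 and 20 counts (20.0 and 28.8 CPM) in Col-0, for a log2 fold change of -1.79 (standard error 0.51). AT3TE18045 (HELITRON4, chromosome 3) had 16 and 17 counts (8.12 and 11.7 CPM) in *jmj26*, against 30 and 11 counts (29.9 and 15.8 CPM) in Col-0, for a log2 fold change of -1.27 (standard error 0.41). Their adjusted p-values were 0.438 and 0.538 in edgeR's quasi-likelihood test. AT3TE18045 stands in the list among other HELITRON copies, next to AT3TE18040 of HELITRON1, which had 401 and 341 counts in *jmj26* and 320 and 131 in Col-0 and a log2 fold change of -0.22. Over all HELITRON copies, 19 pairs of listed neighbours were both tested, and 13 of the 19 had log2 fold changes of the same sign. The share of unrelated pairs with the same sign was not computed, so this count has no background.

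**Figure D4:**
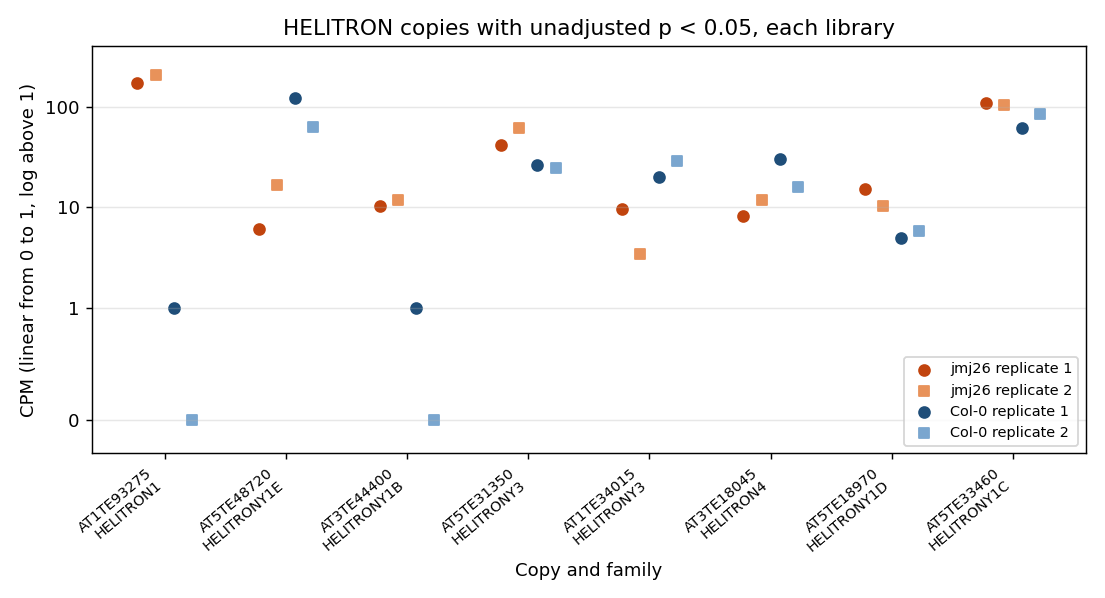
CPM in each of the 4 libraries (linear from 0 to 1, log above) for the 8 HELITRON copies with an unadjusted p below 0.05, with *jmj26* in orange and Col-0 in blue, and circles for replicate 1 and squares for replicate 2. AT1TE93275 and AT3TE44400 are at 0.998 and 0 CPM in Col-0, whereas the other 6 copies have counts in every library.

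The copies with the highest mean CPM did not pass the test. AT3TE13760 (HELITRONY1B) had 1809 and 1320 counts (918 and 906 CPM) in *jmj26*, against 889 and 564 counts (887 and 812 CPM) in Col-0. AT3TE51710 (HELITRON1) had 1218 and 943 counts (618 and 647 CPM) in *jmj26*, against 751 and 450 counts (749 and 648 CPM) in Col-0. AT1TE41000 (HELITRON1) had 1085 and 853 counts (551 and 585 CPM) in *jmj26*, against 562 and 418 counts (561 and 602 CPM) in Col-0. Their log2 fold changes were 0.10, -0.14 and -0.033, each with a standard error of 0.13 or 0.14. Both *jmj26* libraries lay above both Col-0 libraries in AT3TE13760. They lay narrowly below them in AT3TE51710 (647.1 against 647.8 CPM in replicate 2), and the genotypes overlapped in AT1TE41000. AT5TE58950 (HELITRONY1B) had 817 and 648 counts (415 and 445 CPM) in *jmj26*, against 405 and 296 counts (404 and 426 CPM) in Col-0. AT2TE25020 (HELITRON1) had 694 and 558 counts (352 and 383 CPM) in *jmj26*, against 421 and 243 counts (420 and 350 CPM) in Col-0. AT1TE35020 (HELITRON1) had 571 and 587 counts (290 and 403 CPM) in *jmj26*, against 355 and 254 counts (354 and 366 CPM) in Col-0. In these 3 copies the genotypes overlapped, with log2 fold changes of 0.050, -0.068 and -0.056.

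The other 4 of the 10 highest copies did not pass the test either. AT3TE43655 (HELITRONY3) had 686 and 531 counts (348 and 364 CPM) in *jmj26*, against 319 and 225 counts (318 and 324 CPM) in Col-0, without overlap, for a log2 fold change of 0.15 (standard error 0.13). AT4TE34980 (HELITRONY3) had 686 and 405 counts (348 and 278 CPM) in *jmj26*, against 395 and 203 counts (394 and 292 CPM) in Col-0. AT1TE65120 (HELITRON1) had 509 and 402 counts (258 and 276 CPM) in *jmj26*, against 316 and 192 counts (315 and 276 CPM) in Col-0. The log2 fold changes of AT4TE34980 and AT1TE65120 were -0.13 and -0.15. The genotypes overlapped in AT4TE34980. In AT1TE65120 both *jmj26* libraries lay narrowly below both Col-0 libraries (275.9 against 276.4 CPM in replicate 2). AT3TE57600 (HELITRON2) had 378 and 511 counts (192 and 351 CPM) in *jmj26*, against 256 and 327 counts (255 and 471 CPM) in Col-0. It was the copy among the 10 with the widest spread, replicate 2 being higher in both genotypes, and its log2 fold change was -0.42 (standard error 0.39). Adjusted p-values of the 10 copies ran from 0.762 to 0.955 in edgeR's quasi-likelihood test.

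Replicates of a genotype differed by more than 2-fold in a part of the tested copies. Among tested copies with a count in both libraries of the genotype, this was so for 17 of 97 in *jmj26* (17.5%) and 14 of 99 in Col-0 (14.1%). With the same condition, the shares were 16.9% and 16.4% over all tested transposon copies. Of the 17 in *jmj26*, 12 were higher in replicate 2 and 5 in replicate 1. Such copies, chosen after their values were seen, included AT1TE95555 (HELITRONY1D), with 28 and 170 counts in *jmj26* and 12 and 8 in Col-0. Its log2 fold change of 2.44 had an unadjusted p of 0.0637 and an adjusted p of 0.625 in edgeR's quasi-likelihood test. AT2TE18975 (HELITRON4) had 26 and 134 counts in *jmj26* and 20 and 11 in Col-0. Copies with 0 counts in a library were left out of these shares. One of them was AT1TE36595 (HELITRONY1C), with 47 and 0 counts in *jmj26* and 32 and 21 in Col-0. AT1TE31740, AT3TE34915 and AT5TE07900 were also left out, with 31, 54 and 61 counts in *jmj26* replicate 1 and 0 in replicate 2. In AT1TE95555, AT2TE18975 and AT1TE36595, 1 *jmj26* library stood apart from the other 3 libraries, so that the fold change rested on that library.

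Genes linked to DNA methylation and transposon silencing could not be compared in these counts. Of a list of 24, 0 had enough counts to be tested. It included *MET1*, *CMT2*, *CMT3* and *DRM2*, encoding DNA methyltransferases, *KYP*, encoding a histone methyltransferase, and *DDM1*, encoding a chromatin remodeller. It also held *ROS1*, a repressor of silencing, the demethylase gene *IBM1*, and *JMJ26* itself. The highest count of any of the 24 in any library was 18, and 11 were at or under 3 counts in all 4 libraries. Of 5232 gene rows tested, 3 were called at FDR < 0.05 (0.0573%).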

How the data were processed

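RNA-seq libraries of *jmj26* and Col-0 rosettes were grouped by their labels. The authors trimmed reads with fastp, aligned them with STAR 2.7 while keeping multiple hits, and deposited raw TEcount counts for genes and single transposon copies, without normalization. TEcount divides reads with several hits among copies, so closely related copies share counts. The strand setting and the transposon annotation used are not given in the sources used here. The members and gene lists were chosen with earlier results of these data known.

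Counts of 36632 gene rows and 31189 transposon rows were fitted together with edgeR 4.0.16 in R 4.3.3 (filterByExpr, TMM, glmQLFit with legacy = TRUE, glmQLFTest). Benjamini-Hochberg adjustment covered the 846 transposon rows tested, with a threshold of 0.05. The biological coefficient of variation was 24.4%. CPM were scaled by TMM. Standard errors were derived from each fold change and its F statistic. Named copies are those called, those with p below 0.05 whose libraries did not overlap, and the 10 with the highest mean CPM. Expected detection at equal depth assumes sampling without replacement. Alternatives were other scalings, filters and tools (DESeq2 1.42.0), transposon rows alone, a replicate block and each library left out. Shares and exact tests used scipy 1.17.1 and pandas 2.3.3.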

Additional observations from a re-analysis of the deposited data

How the results depend on the processing

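Without a filter, 13 of 1009 HELITRON copies were called at FDR < 0.05, against 109 of 7703 transposon copies. With DESeq2, 2 of 101 were called, against 8 of 846. When each library needed at least 10 counts, 0 of 64 were called (8 at an unadjusted p below 0.05), against 1 of 575 transposon copies. When transposon rows were fitted alone, 0 of 98 were called (4 at an unadjusted p below 0.05, edgeR's quasi-likelihood test), against 0 of 823. Shares of all transposon copies at an unadjusted p are not given for these settings, so the 8 and the 4 have no background. Leaving out 1 library gave 1 to 16 called copies and 0 to 1 called families, and without a filter 1 family, HELITRON5, was called. The 16 came without *jmj26* replicate 1, a fit in which calls among all transposon copies rose as well. That fit set 1 library against 2, so the 16 are not read as a result particular to HELITRON copies. The median log2 fold change of tested copies was 0.088 without a filter and 0.022 with the minimum of 10. It was -0.14 to -0.025 with 1 library left out. The summed copies had log2 fold changes of 0.037 with library totals, 0.036 with the minimum of 10 and 0.062 with transposon rows alone, and -0.13 to 0.022 with 1 library left out. The difference in share was -0.116 percentage points without ATDNA12T3_2, and -0.115 to 1.13 with 1 library left out. The causes were not tested, except that the filters change which rows are tested.

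Signs near 0 turned elsewhere. HELITRON1 was at -0.0088 with DESeq2's size factors, -0.083 without a filter, -0.0092 with DESeq2 and -0.071 without AT1TE93275. With library totals, the minimum of 10 and transposon rows alone, AT1TE41000 was at 0.018, 0.029 and 0.011, HELITRON3 at 0.0044, 0.0056 and 0.047, and HELITRONY1A at 0.0022, 0.0027 and 0.046. Without a filter, AT5TE58950 was at -0.020, HELITRONY1B at -0.038 and HELITRONY2 at -0.070. AT1TE35020 was at 0.0085 with the minimum of 10 and HELITRONY3 at 0.016 with transposon rows alone. With 1 library left out, log2 fold changes ran from -0.31 to 0.15 for AT1TE35020, -0.42 to 0.020 for AT4TE34980, -0.091 to 0.082 for AT5TE58950, -0.046 to 0.11 for AT3TE13760 and -0.91 to 0.0074 for AT3TE57600. They ran from -0.14 to 0.12 for HELITRON1, -0.19 to 0.0097 for HELITRON3, -0.26 to 0.62 for HELITRON4, -0.22 to 0.019 for HELITRONY1A and -0.060 to 0.061 for HELITRONY1B. They ran from -0.064 to 0.27 for HELITRONY1C, -0.0084 to 0.27 for HELITRONY1D and -0.16 to 0.12 for HELITRONY2.

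Same-numbered libraries did not deviate together (correlation -0.089 over 6078 rows). The replicate block gave 1 called copy of 101, against 3 of 846 over all transposon copies. It gave a median log2 fold change of -0.075 and 0 called families. The alternatives without ATDNA12T3_2, AT1TE93275 and AT3TE58655 were chosen after seeing the data.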
